A study of Homo sapiens with 32 samples.

Results

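The genes described here are 10 core pluripotency factors, POU5F1, NANOG, SOX2, LIN28A, LIN28B, SALL4, PRDM14, UTF1, DPPA4 and ZFP42, taken by name from the 61541 genes of the count table. They were measured by messenger RNA sequencing in 2 human germ cell tumour lines. TCam-2 is derived from a seminoma and NTera2 from an embryonal carcinoma. Each line was cultured with RANKL, with osteoprotegerin (OPG), with denosumab or with the vehicle D-PBS for 48 h, RANKL and OPG at 1 µg/ml, while the labels name denosumab only in the titles and treatment tags and the protocol text lists RANKL at 2 places, never denosumab and no dose of it. The denosumab libraries are described by their treatment tag. The cytokine RANKL signals through the receptor RANK, the decoy receptor OPG captures it, and denosumab is a therapeutic antibody directed at it. Each of the 8 groups had 4 libraries, from 4 independent experiments at passages 118, 120, 121 and 122 of TCam-2 and 27, 29, 30 and 31 of NTera2, so 32 libraries in all. Neither line carried an engineered allele according to the labels, and both were grown with fetal bovine serum, TCam-2 in RPMI 1640 and NTera2 in DMEM. The growth medium therefore cannot be told apart from the line. Each line is a single tumour-derived culture, so the replicates measure the spread between passages of that culture and not between tumours.

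Pluripotency in early embryonic cells rests on a circuit in which OCT4 (the product of POU5F1), SOX2 and NANOG bind each other's regulatory regions and a shared set of target genes. LIN28A and LIN28B are RNA-binding proteins that block maturation of the let-7 microRNAs, SALL4 recruits the NuRD chromatin complex, and PRDM14 represses differentiation genes and takes part in germ cell specification. UTF1 and DPPA4 are chromatin-associated proteins of undifferentiated cells, and ZFP42, also called REX1, is a zinc finger protein best known as a marker of undifferentiated mouse and human stem cells. Seminomas are known to express OCT4 and NANOG with SOX17 in place of SOX2, whereas embryonal carcinomas express OCT4, NANOG and SOX2.

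Promoters were read for 6 of the 10 members, and those of POU5F1, LIN28A, SALL4 and PRDM14 were not searched. To place the circuit in sequence, 3 are shown. NANOG and SOX2 were taken because, of those read, they carry the core of the octamer to which OCT4 binds. UTF1 was taken because it is the member with the highest transcript GC content. The sequences are the 250 bases before the annotated start site in RefSeq (GRCh38.p14), read 5′ to 3′ on the gene's own strand, which is the plus strand for each of them. They lie at chr12:7789152-7789401 (NANOG), chr3:181711675-181711924 (SOX2) and chr10:133229967-133230216 (UTF1). Capitals mark the composite OCT-SOX motif in NANOG, the octamer core in SOX2 and the GC boxes in UTF1.
NANOG: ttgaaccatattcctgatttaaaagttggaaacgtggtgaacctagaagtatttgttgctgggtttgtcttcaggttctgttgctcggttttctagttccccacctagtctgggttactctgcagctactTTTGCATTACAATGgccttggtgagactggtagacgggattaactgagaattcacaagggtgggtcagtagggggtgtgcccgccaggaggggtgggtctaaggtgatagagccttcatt
SOX2: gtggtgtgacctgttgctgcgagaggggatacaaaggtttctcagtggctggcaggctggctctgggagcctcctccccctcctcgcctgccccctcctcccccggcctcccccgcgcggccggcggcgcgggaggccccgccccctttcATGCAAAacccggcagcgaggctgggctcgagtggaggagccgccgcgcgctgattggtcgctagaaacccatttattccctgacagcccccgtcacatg
UTF1: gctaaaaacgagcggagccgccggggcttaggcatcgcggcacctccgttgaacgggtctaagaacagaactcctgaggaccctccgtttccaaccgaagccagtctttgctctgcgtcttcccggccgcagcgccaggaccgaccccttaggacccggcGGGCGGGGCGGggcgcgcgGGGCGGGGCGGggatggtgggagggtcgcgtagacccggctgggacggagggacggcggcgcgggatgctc

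The octamer core was searched as ATGCAAA, the SOX core as ACAATG, the GC box as GGGCGG and the composite as the octamer core read on the opposite strand, any 1 base and the SOX core, each on both strands of a window of 300 bases that runs 50 bases past the start site. NANOG held the composite 120 to 107 bases before its start site, and the octamer core and the SOX core found there are parts of that same match. Of the 35116 promoters in the table, 3 held the composite, 0.00854%. SOX2 held the octamer core 100 to 94 bases before its start site, a motif found in 4.46% of promoters. The SOX core was found in 10.8% of promoters and the GC box in 45% of them. UTF1 held 6 GC boxes, 4 of them in the sequence shown, and none of the other motifs. The GC content of the full windows was 46.7% for NANOG, 63.3% for SOX2 and 71.7% for UTF1. A match says only that these letters are present.

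Markers of the labelled tumour types were detected in the line of that label. The summed level of the seminoma markers SOX17, TFAP2C, PRDM1, KIT and PDPN lay between 1926 and 2259 library-scaled counts (CPM) in TCam-2 libraries and between 173 and 189 CPM in NTera2 libraries. In NTera2, PDPN alone held 122 to 144 CPM, KIT 19.6 to 29.7 CPM and TFAP2C 17.2 to 26.0 CPM. SOX17 reached at most 0.277 CPM there and PRDM1 at most 2.28 CPM. The embryonal carcinoma markers TNFRSF8, DNMT3B, GDF3 and SOX2 summed to 72.9 to 91.1 CPM in TCam-2 and to 1235 to 1696 CPM in NTera2. SOX2 is itself a member, so its part in that sum is no separate check of the label. Immune cell markers summed to at most 3.10 CPM in any TCam-2 library and to at most 1.46 CPM in any NTera2 library. Library totals ran from 10585247 to 20257935 counts in TCam-2 and from 11385500 to 30499538 counts in NTera2. Member genes took 0.324% to 0.374% of the counts in TCam-2 and 0.467% to 0.519% in NTera2. The RNA integrity number was 6.1 and 3.7 in TCam-2 RANKL replicates 2 and 4 and at least 8.3 in every other library for which the labels give it.

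POU5F1 was the highest member in TCam-2, with SOX2 and ZFP42 at the bottom, whereas LIN28A and POU5F1 led in NTera2, with UTF1 and ZFP42 at the bottom. Levels of different genes are compared per kilobase, as CPM divided by the deposited gene length. Which transcript of a gene was expressed was not examined, so the order can depend on that length. In TCam-2, NANOG averaged 562 CPM over 5.392 kb and LIN28A 475 CPM over 3.975 kb. In TCam-2, POU5F1 stood highest at 677 ± 54.5 CPM per kb (SD over 16 libraries), and its lowest library lay above the highest of any other member. LIN28A at 119 ± 8.81 and NANOG at 104 ± 7.02 CPM per kb followed, and their ranges over libraries overlapped. DPPA4 averaged 65.2 ± 3.83 CPM per kb and PRDM14 46.7 ± 4.24 CPM per kb, and their ranges touched only at the highest PRDM14 library. SALL4 at 26.6 ± 2.18 and LIN28B at 21.8 ± 1.54 CPM per kb overlapped, with UTF1 below them at 8.68 ± 3.14 CPM per kb. SOX2 averaged 0.980 ± 0.371 CPM per kb in TCam-2 and ZFP42 0.0644 CPM per kb.

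In NTera2 the order was different. LIN28A led with 507 ± 10.1 CPM per kb, and POU5F1 at 436 ± 39.9 CPM per kb overlapped it in range. DPPA4 with 115 ± 8.03 CPM per kb and SOX2 with 108 ± 12.3 CPM per kb could not be separated either. The same held for PRDM14 at 47.2 ± 2.79 and SALL4 at 43.8 ± 1.83 CPM per kb, and for NANOG at 12.1 ± 1.40 and LIN28B at 11.6 ± 0.688 CPM per kb. UTF1 averaged 1.39 ± 0.716 CPM per kb and ZFP42 0.0121 CPM per kb in that line (SD, n = 16 each).

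**Figure D1:**
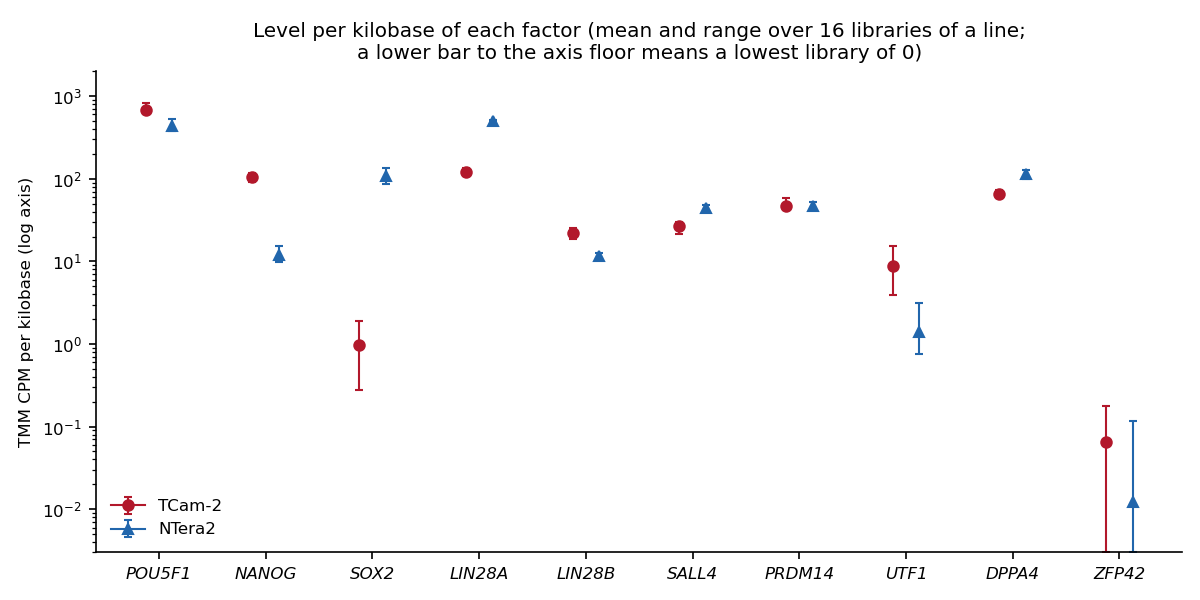
Level of each member in CPM per kilobase of gene length, log axis, over the 16 TCam-2 and the 16 NTera2 libraries; points are means and bars run from the lowest to the highest library, down to the axis floor where that is 0. POU5F1 stands alone at the top in TCam-2 (mean 677 CPM per kb), while LIN28A (507) and POU5F1 (436) overlap at the top in NTera2.

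Setting the lines side by side asks how the factors differ between seminoma-derived and embryonal carcinoma-derived cells. Of the 9 members that passed the filter on low counts, 8 differed between TCam-2 and NTera2 under vehicle by edgeR's quasi-likelihood test at a Benjamini-Hochberg adjusted p under 0.05, 4 of them higher and 4 lower in TCam-2. That share has to be read against the background, since 76.2% of all 16816 genes tested differed, 37.4% higher and 38.8% lower in TCam-2. The median absolute log2 difference was 0.90 over the members and 0.84 over all genes. The same 8 members were called in the same direction under RANKL, OPG and denosumab, where 74.3%, 76.2% and 79.7% of genes were called. Over all 32 libraries the ranges of 16 TCam-2 and 16 NTera2 libraries did not overlap for those 8 members, which was true of 47.1% of 19216 genes. In bulk RNA, fewer cells that express a gene and less of its RNA per cell cannot be told apart.

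POU5F1 (ENSG00000204531, chr6:31164337-31180731, minus strand, GRCh38/hg38 as for all coordinates of the count table) encodes OCT4. Its vehicle libraries held 1830, 1901, 1998 and 2361 CPM in TCam-2, against 1251, 1535, 1263 and 1285 CPM in NTera2. Every TCam-2 library lay above every NTera2 library. The log2 difference was 0.62 ± 0.0821 (SE, 1.54-fold, edgeR adjusted p = 3.33e-06, n = 4 each). NANOG (ENSG00000111704, chr12:7787794-7795095, plus strand), the homeodomain protein of the circuit, held 575, 575, 604 and 523 CPM in TCam-2, against 67.2, 65.8, 61.3 and 53.2 CPM in NTera2. TCam-2 stood 9.31-fold higher, a log2 difference of 3.22 ± 0.0861 (edgeR adjusted p = 6.01e-15). SOX2 (ENSG00000181449, chr3:181711925-181714436, plus strand), the HMG-box partner of OCT4, ran the other way. It held 2.89, 3.75, 1.49 and 1.87 CPM in TCam-2, against 279, 340, 263 and 330 CPM in NTera2. That made SOX2 122-fold lower in TCam-2 (log2 difference −6.93 ± 0.176, edgeR adjusted p = 3.29e-15), the widest gap among the members tested.

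Both members of the let-7 blocking pair were present in both lines but leaned in opposite directions. LIN28A (ENSG00000131914, chr1:26410817-26429719, plus strand) held 428, 436, 497 and 448 CPM in TCam-2, against 1935, 2029, 2062 and 1975 CPM in NTera2. It was 4.37-fold lower in TCam-2 (log2 difference −2.13 ± 0.0617, edgeR adjusted p = 1.61e-14). LIN28B (ENSG00000187772, chr6:104936616-105078602, plus strand) held 128, 131, 129 and 112 CPM in TCam-2, against 73.8, 67.1, 67.1 and 64.2 CPM in NTera2. It was 1.86-fold higher in TCam-2, a log2 difference of 0.90 ± 0.0833 (edgeR adjusted p = 4.6e-08). None of the LIN28A or LIN28B libraries of one line reached into the range of the other.

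Among the chromatin factors, SALL4 was lower in TCam-2 and PRDM14 did not pass the test. SALL4 (ENSG00000101115, chr20:51782331-51802521, minus strand) held 156, 151, 161 and 123 CPM in TCam-2, against 247, 275, 248 and 251 CPM in NTera2, a log2 difference of −0.77 ± 0.082 (1.71-fold lower, edgeR adjusted p = 2.36e-07). PRDM14 (ENSG00000147596, chr8:70051651-70071693, minus strand) held 108, 106, 126 and 99.5 CPM in TCam-2, against 119, 120, 113 and 110 CPM in NTera2. These values overlapped, and the log2 difference was −0.05 with a 95% interval of −0.22 to 0.11 (edgeR adjusted p = 0.544). Under RANKL, PRDM14 passed the test only when NTera2 RANKL replicate 4 was left out (−0.19, edgeR adjusted p = 0.0269).

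Of the remaining members, UTF1 was higher and DPPA4 lower in TCam-2. UTF1 (ENSG00000171794, chr10:133230217-133231558, plus strand) held 12.5, 15.1, 10.4 and 15.3 CPM in TCam-2, against 2.18, 3.22, 1.18 and 3.78 CPM in NTera2. The log2 difference was 2.36 ± 0.255 under vehicle (5.13-fold, edgeR adjusted p = 2.9e-07), 2.71 under RANKL, 1.90 under OPG and 3.67 under denosumab. With a correction for GC content, chosen after seeing the data, it was 3.19 under vehicle, 3.22 under RANKL, 2.78 under OPG and 3.83 under denosumab. DPPA4 (ENSG00000121570, chr3:109326144-109337546, minus strand) held 320, 324, 337 and 295 CPM in TCam-2, against 607, 591, 586 and 510 CPM in NTera2, a log2 difference of −0.83 ± 0.0727 (1.78-fold lower, edgeR adjusted p = 2.12e-08).

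ZFP42 (ENSG00000179059, chr4:187995771-188005045, plus strand) did not pass the filter on low counts. It had 38 counts over the 16 TCam-2 libraries, 13 of which held at least 1, and 8 counts over the 16 NTera2 libraries, 3 of which held any. The ratio of rates, counts over library totals, was 4.84, with a 95% interval of 2.22 to 12.0 that covers counting error only. Of the NTera2 counts, 5 came from RANKL replicate 3, and without that library, left out after seeing the data, the ratio was 12.1 with an interval of 3.84 to 61.3. All 4 NTera2 denosumab libraries held 0 counts, and the limit that a count of 0 allows is 3 counts over the group. Without the filter ZFP42 was called between the lines only under denosumab (edgeR adjusted p = 0.0253).

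**Figure D2:**
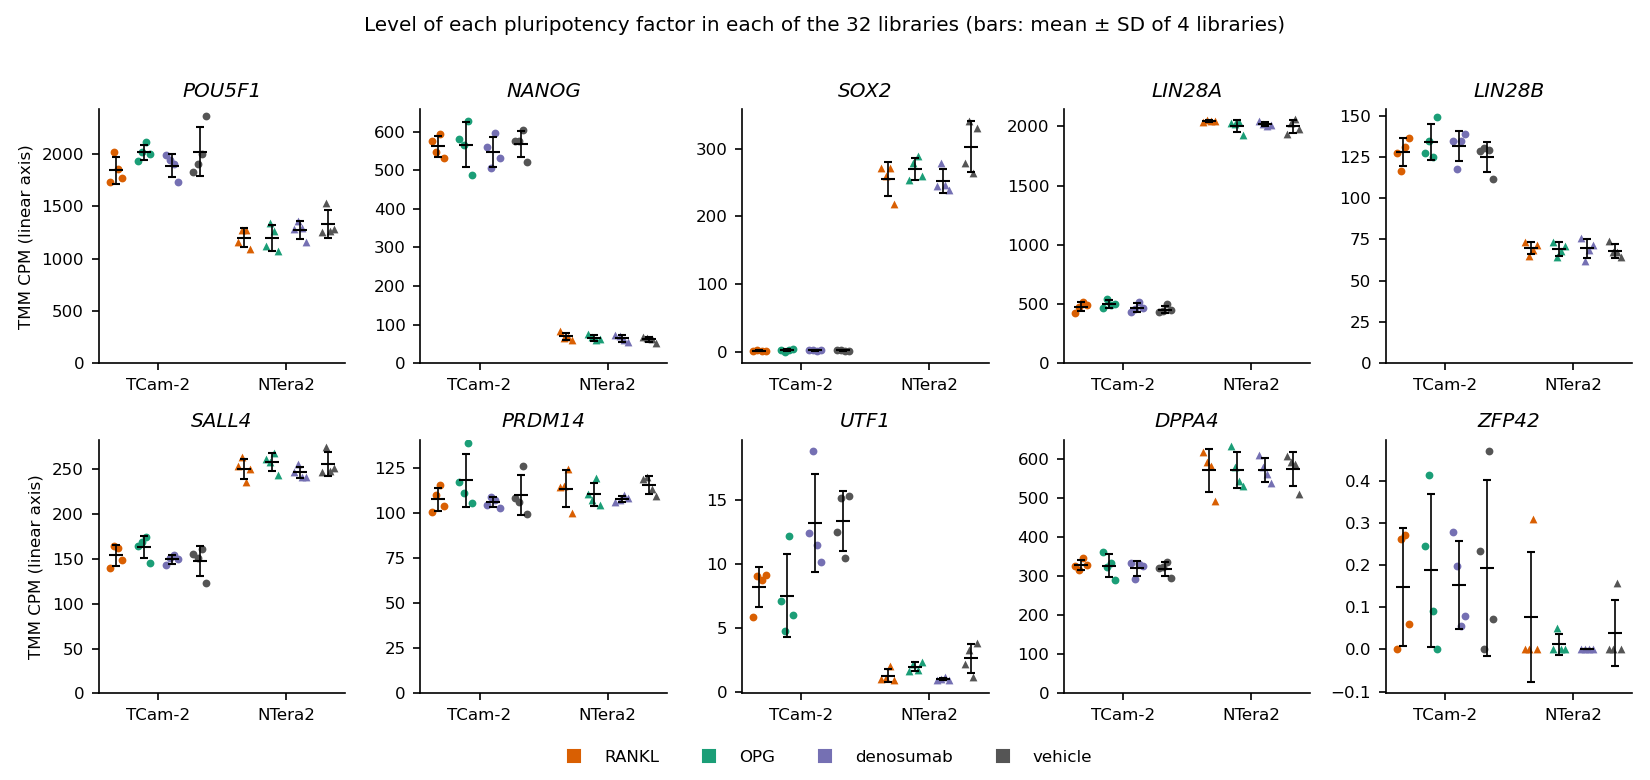
CPM of every member in each of the 32 libraries, linear axes, by line and treatment; points are libraries and bars the mean ± SD of 4 libraries, which for ZFP42 can reach below 0. SOX2 falls between 0.691 and 4.76 CPM in TCam-2 and between 219 and 340 CPM in NTera2, while the PRDM14 ranges of the lines overlap on this TMM scale.

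**Figure D3:**
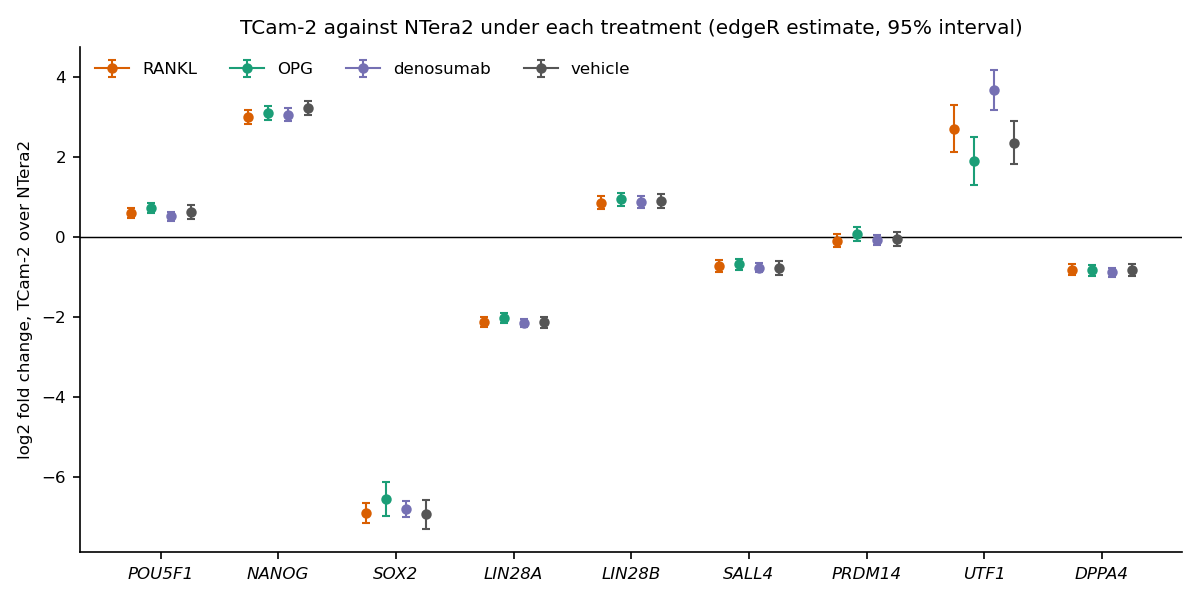
Log2 difference of each tested member, TCam-2 over NTera2, under each treatment, with 95% intervals from edgeR and 4 libraries per line. The direction holds under each treatment for 8 members and the interval of PRDM14 includes 0 each time.

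Near-identical copies and overlapping genes limit how exactly some members were counted. NANOG has 11 copies in the table whose counts summed to 8.95% of its own in TCam-2 and to 39.8% in NTera2, led by NANOGP8 with 31.7 CPM in TCam-2 and 15.7 CPM in NTera2 and by NANOGP1 with 14.3 CPM in TCam-2 and 9.55 CPM in NTera2. Adding all 11 to NANOG gave 620 CPM in TCam-2 and 87.5 CPM in NTera2 under vehicle, a log2 ratio of means of 2.82 in place of 3.20. The 7 copies of POU5F1 came to 1.72% of its counts in TCam-2 and 1.64% in NTera2. TCF19 overlaps POU5F1 on the opposite strand with 69.0 CPM in TCam-2 and 23.6 CPM in NTera2, and SOX2 shares its interval and strand with SOX2-OT, at 23.2 CPM in TCam-2 and 27.4 CPM in NTera2. The strand setting of the counting is not given in the sources used here, so reads from overlapping genes cannot be told apart with certainty. In TCam-2 the mean SOX2 level, 2.46 CPM, was below that of SOX2-OT in CPM, which are not scaled by gene length here.

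Genes known to act with or downstream of the members were counted in the same comparison under vehicle, where the median log2 difference over all genes was −0.01. The gene lists were chosen with earlier results of these data known, so their counts are descriptions. A tested gene can have passed the filter on low counts through 1 line alone. Of all genes tested there, 76.2% were called, 37.4% higher and 38.8% lower in TCam-2. Of 17 tested targets of OCT4, SOX2 and NANOG, 3 were higher and 13 lower in TCam-2, with a median of −1.54. Among those higher, DPPA2, which forms a complex with DPPA4, averaged 47.6 ± 6.71 CPM in TCam-2 and 1.93 ± 0.908 CPM in NTera2. L1TD1, an RNA-binding protein of stem cells, averaged 895 ± 65.9 CPM in TCam-2 and 482 ± 42.2 CPM in NTera2. Among those lower, the deubiquitinase USP44 averaged 3.21 ± 1.07 CPM in TCam-2 and 171 ± 17.2 CPM in NTera2, and the de novo DNA methyltransferase DNMT3B 62.9 ± 4.69 CPM in TCam-2 and 1051 ± 90.5 CPM in NTera2 (SD, n = 4 each).

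Most tested genes on the lists for the naive and the primed state of pluripotency differed between the lines, in opposite directions. Of 12 naive and 10 primed genes listed, 9 each passed the filter. In TCam-2, 8 of 9 tested naive genes were higher and 1 was lower, median 5.44. Of 9 tested primed genes, 1 was higher and 8 were lower, median −2.79. Over all genes, 37.4% were called higher and 38.8% lower. SUSD2, a surface protein used to mark naive human stem cells, averaged 412 ± 60.9 CPM in TCam-2 and 4.20 ± 1.40 CPM in NTera2. TBX3 averaged 39.5 ± 6.55 CPM in TCam-2 and 0.522 ± 0.113 CPM in NTera2, and DPPA3 was the exception at 0.505 ± 0.221 CPM in TCam-2 and 26.0 ± 1.79 CPM in NTera2. Of the primed genes, ZIC2 averaged 0.193 ± 0.125 CPM in TCam-2 and 157 ± 10.8 CPM in NTera2, SFRP2 had a log2 difference of −5.54, and CDH2, which encodes N-cadherin, was the exception with 394 ± 39.5 CPM in TCam-2 and 55.9 ± 1.28 CPM in NTera2.

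On the LIN28 and let-7 axis, 3 of 14 tested genes were higher and 8 lower in TCam-2, median −0.39. That made 11 of 14 called, close to the 76.2% of all genes called. The processing enzyme DICER1 (log2 difference 0.87) and the Drosha cofactor DGCR8 (0.46) were higher. HMGA2, a let-7 target, averaged 20.9 ± 3.13 CPM in TCam-2 and 188 ± 10.3 CPM in NTera2, and MYCN 39.5 ± 4.89 CPM in TCam-2 and 164 ± 8.51 CPM in NTera2. Of 15 tested SALL family and NuRD genes, 5 were higher and 9 lower, median −0.36. CHD3 (1.77) and MTA2 (1.21), both NuRD subunits, were higher, while the SALL4 paralogs SALL1 (−5.52) and SALL3 (−4.24) were lower in TCam-2. Of 10 tested partners and targets of PRDM14, 5 were higher and 3 lower, median 0.48. With 8 of 10 called, that list too stood close to the share over all genes. TFAP2C, a germ cell transcription factor, averaged 1419 ± 87.8 CPM in TCam-2 and 20.3 ± 1.19 CPM in NTera2, and the dioxygenase TET2 93.8 ± 24.2 CPM in TCam-2 and 8.43 ± 1.70 CPM in NTera2. The Polycomb methyltransferase EZH2 averaged 27.5 ± 1.38 CPM in TCam-2 and 87.3 ± 2.55 CPM in NTera2. The corepressor CBFA2T3 had 1 count in the TCam-2 vehicle libraries and 329 in those of NTera2, a ratio of 290 in favour of NTera2 with a counting interval of 51.6 to 11471.

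Among relatives of SOX2, of 13 tested SOX genes, 4 were higher and 8 lower in TCam-2, median −0.81. Over all genes, these shares were 37.4% and 38.8%. SOX17, the seminoma counterpart of SOX2, had 8158 counts in TCam-2 vehicle libraries and 2 in those of NTera2, a ratio of rates of 4635 with a counting interval of 1283 to 38278. SOX15 averaged 149 ± 17.2 CPM in TCam-2 and 1.90 ± 0.304 CPM in NTera2. SOX11 averaged 0.241 ± 0.164 CPM in TCam-2 and 66.7 ± 5.83 CPM in NTera2, and SOX8 had 1 count in TCam-2 and 653 in NTera2, 575-fold in favour of NTera2 with a counting interval of 103 to 22733. Among relatives of POU5F1, 2 of 5 tested POU genes were higher and 1 lower, median 0.21, beside the 76.2% of all genes called, with POU6F1 at 44.0 ± 7.98 CPM in TCam-2 and 9.49 ± 0.754 CPM in NTera2.

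Of 16 genes of the germ layers and trophoblast, 4 averaged at least 5 CPM over the TCam-2 libraries and 1, NES, over the NTera2 libraries. Of 9 tested genes of the germ layers and trophoblast, 6 were higher and 3 lower in TCam-2, median 1.94. For this list and the 2 that follow, the shares over all genes were 37.4% higher and 38.8% lower. GATA4 averaged 47.2 ± 2.83 CPM in TCam-2 and 0.293 ± 0.0957 CPM in NTera2, and HAND1 had 526 counts in TCam-2 and 0 in NTera2. A floor of 3 counts over the NTera2 group put HAND1 199-fold higher in TCam-2, and the lower limit of its counting interval was 161-fold. NES, which encodes nestin, averaged 216 ± 25.3 CPM in TCam-2 and 471 ± 34.8 CPM in NTera2. Of 8 tested retinoic acid response genes, 5 were higher and 3 lower, median 0.85. NR2F2 averaged 49.0 ± 3.04 CPM in TCam-2 and 0.962 ± 0.567 CPM in NTera2, and CYP26A1 had 1 count in TCam-2 and 566 in NTera2 (498-fold in favour of NTera2, counting interval 89.0 to 19709). Of the 5 tested fibroblast markers, 2 were higher and 3 lower in TCam-2, with COL1A2 at 280 ± 8.35 CPM in TCam-2 and 0.664 ± 0.521 CPM in NTera2, PDGFRB at 3.65 ± 1.20 CPM in TCam-2 and 38.0 ± 2.13 CPM in NTera2, PDGFRA at 1.03 ± 0.759 CPM in TCam-2 and 5.93 ± 0.493 CPM in NTera2 and FAP at 0 counts in both lines. The median of that list was −1.81. The part of other cell types in the line differences was not tested.

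The treatment comparisons ask whether RANKL or its inhibitors moved the pluripotency factors. In no comparison with vehicle did edgeR call a member, and the background was the same, 0% of 17351 genes in NTera2 and 0% of 16621 genes in TCam-2 for each of RANKL, OPG and denosumab. At an unadjusted p under 0.05 stood 1787, 291 and 1258 genes for RANKL, OPG and denosumab in NTera2 and 1482, 1442 and 1090 genes in TCam-2. The members among them numbered 2, 1 and 2 in NTera2 and 2, 1 and 0 in TCam-2, and they were SOX2 and UTF1 in NTera2 and POU5F1 and UTF1 in TCam-2. DESeq2 called 0, 0 and 14 genes in NTera2 and 1, 7 and 0 genes in TCam-2, none of them a member, and gave no adjusted p for UTF1 with denosumab in NTera2.

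For the 7 tested members other than SOX2 and UTF1, the data bounded any difference closely. Across the 6 comparisons their 95% intervals ran from −0.33 (POU5F1 in TCam-2 with RANKL) to 0.40 (NANOG in NTera2 with RANKL) on the log2 scale. LIN28A in NTera2 held 2033, 2051, 2045 and 2046 CPM with RANKL, against 1935, 2029, 2062 and 1975 CPM with vehicle. Its log2 difference was 0.06, interval −0.02 to 0.14. NANOG in NTera2 held 82.6, 66.0, 66.8 and 61.0 CPM with RANKL, against 67.2, 65.8, 61.3 and 53.2 CPM with vehicle. The groups overlapped, with a log2 difference of 0.19 ± 0.101 (edgeR adjusted p = 0.509). POU5F1 in TCam-2 held 1730, 2014, 1856 and 1765 CPM with RANKL, against 1830, 1901, 1998 and 2361 CPM with vehicle. The groups overlapped and the log2 difference was −0.18 ± 0.0709 (unadjusted p = 0.0181, edgeR adjusted p = 0.557). Without the 2 libraries of low RNA integrity it was −0.23 (edgeR adjusted p = 0.275).

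SOX2 in NTera2 was among the lower values. It held 271, 260, 272 and 219 CPM with RANKL, 254, 278, 289 and 259 CPM with OPG and 244, 279, 246 and 239 CPM with denosumab, against 279, 340, 263 and 330 CPM with vehicle. Vehicle replicates 2 and 4 lay above every treated library, and vehicle replicates 1 and 3 lay within the treated range. The log2 difference was −0.22 (interval −0.36 to −0.07, edgeR adjusted p = 0.368) with RANKL, −0.15 (edgeR adjusted p = 1) with OPG and −0.24 (interval −0.39 to −0.09, edgeR adjusted p = 0.406) with denosumab. With a GC correction, chosen after seeing the data, these NTera2 values were −0.23, −0.15 and −0.25. The 3 comparisons share their vehicle libraries. In TCam-2, where SOX2 was at most 4.76 CPM, the intervals of its 3 log2 differences ran from −1.03 to 0.94, so the data bounded a difference only loosely there.

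UTF1 had the lowest log2 difference of the tested members in each comparison with vehicle except that with denosumab in TCam-2. In NTera2 it held 1.01, 1.06, 1.97 and 0.944 CPM with RANKL, 1.62, 2.13, 1.66 and 2.33 CPM with OPG and 0.928, 0.984, 1.11 and 0.921 CPM with denosumab, against 2.18, 3.22, 1.18 and 3.78 CPM with vehicle. All denosumab libraries lay below all vehicle libraries, which was true in either direction of 3.5% of genes. The log2 differences in NTera2 were −1.04 (interval −1.71 to −0.37, edgeR adjusted p = 0.368) with RANKL, −0.40 with OPG and −1.37 (interval −2.07 to −0.66, edgeR adjusted p = 0.321) with denosumab.

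In TCam-2, UTF1 held 5.85, 9.06, 8.75 and 9.10 CPM with RANKL, 7.09, 4.77, 12.1 and 5.96 CPM with OPG and 12.4, 18.8, 11.4 and 10.1 CPM with denosumab, against 12.5, 15.1, 10.4 and 15.3 CPM with vehicle. Here the RANKL libraries lay below all vehicle libraries, against 2.83% of genes that did not overlap in that comparison. The log2 differences were −0.75 (edgeR adjusted p = 0.557) with RANKL, −0.89 (edgeR adjusted p = 0.471) with OPG and −0.07 (interval −0.54 to 0.39) with denosumab. Without the 2 RANKL libraries of low RNA integrity, the RANKL value was −0.92 (edgeR adjusted p = 0.275). No member had groups that did not overlap with RANKL or OPG in NTera2 (background 3.92% and 1.97%) or with OPG or denosumab in TCam-2 (background 2.97% and 3.36%).

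GC content was measured beside these UTF1 values, and its part in them was not tested. The longest UTF1 transcript is 76.8% G and C, whereas those of the other members lie between 38.1% and 54.9%. The tenth of genes richest in GC had median log2 differences of −0.21, −0.08 and −0.21 with RANKL, OPG and denosumab in NTera2 and of −0.16, −0.16 and −0.07 in TCam-2. With the GC correction UTF1 stood at −0.53, −0.14 and −0.74 in NTera2 and at −0.40, −0.51 and −0.03 in TCam-2. When genes of low counts were kept in the fit, edgeR called UTF1 with denosumab in NTera2 (adjusted p = 0.0241) and with RANKL (adjusted p = 0.0196) and OPG (adjusted p = 0.00076) in TCam-2, and SOX2 with denosumab in NTera2 (adjusted p = 0.0156). That fit called 0.65% of 36435 genes with denosumab in NTera2 and 0.144% and 0.152% of 35493 genes with RANKL and OPG in TCam-2. Without NTera2 vehicle replicate 3, UTF1 with denosumab was −1.59 (edgeR adjusted p = 0.0455).

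**Figure D4:**
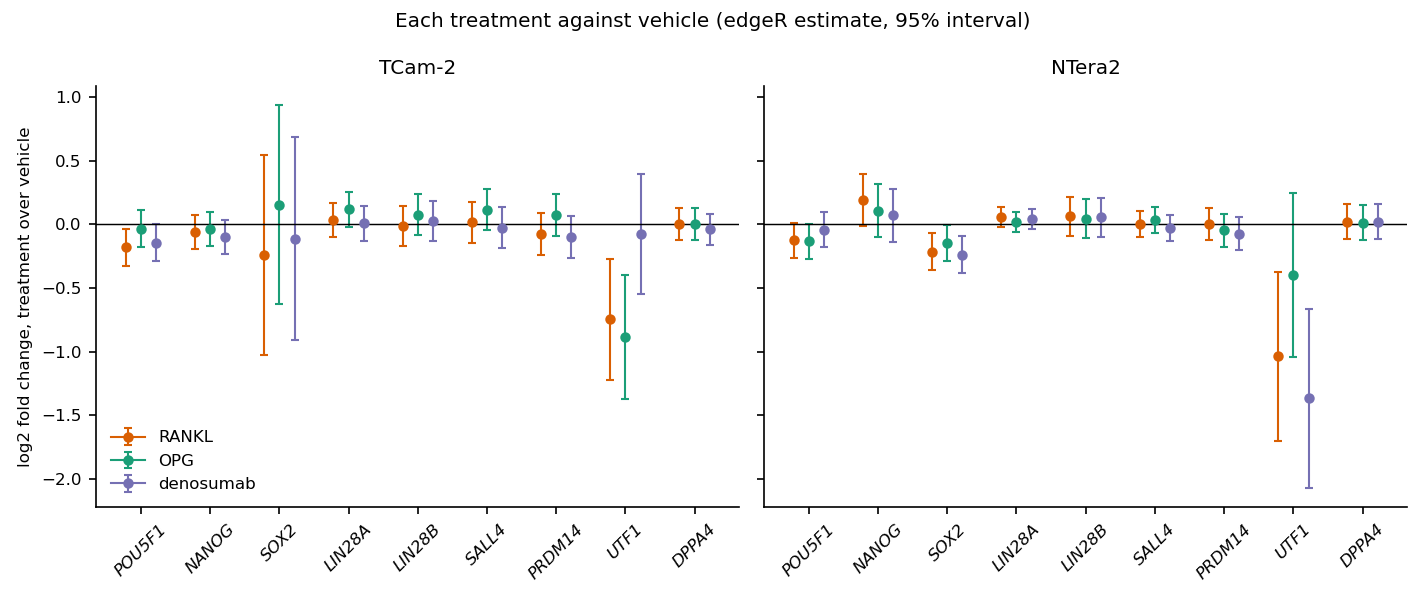
Log2 difference from vehicle of each tested member with RANKL, OPG and denosumab in TCam-2 and NTera2, with 95% intervals from edgeR and 4 libraries per group. Most members lie within 0.40 of 0, and UTF1 reaches −1.37 with denosumab in NTera2; no value passed the adjusted threshold.

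Setting the inhibitors against RANKL itself gave no member call either, with 0% of genes called for OPG and 0% for denosumab in each line. The only member at an unadjusted p under 0.05 was UTF1 with denosumab against RANKL in TCam-2, with a log2 difference of 0.67 (interval 0.20 to 1.15, unadjusted p = 0.00746, edgeR adjusted p = 1). In that comparison 155 of 16621 genes stood under the unadjusted threshold. For OPG against RANKL in TCam-2 it was 855 genes, and in NTera2 870 of 17351 genes with OPG and 756 with denosumab. The UTF1 log2 difference was 0.36 with the GC correction. The same difference in NTera2 was −0.33 (interval −1.07 to 0.41). Whether the lines differed in their response was tested as an interaction, for which 0% of 19216 genes were called with RANKL, OPG or denosumab. UTF1 with denosumab had the highest member value, 1.35 (TCam-2 minus NTera2, interval 0.50 to 2.19, unadjusted p = 0.00251, edgeR adjusted p = 0.95), and was 0.62 with the GC correction. In the denosumab interaction 918 of the 19216 genes stood at an unadjusted p under 0.05.

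Across passages of NTera2, 3 of the 9 tested members changed, POU5F1, NANOG and DPPA4. The test was edgeR's F test over 4 passages with treatment in the fit, and it called 8.28% of genes. NANOG averaged 74.3, 67.1, 61.6 and 57.6 CPM at passages 27, 29, 30 and 31, a log2 range of 0.37 (edgeR adjusted p = 0.00224). DPPA4 averaged 617, 585, 568 and 517 CPM at those passages, a log2 range of 0.26 (edgeR adjusted p = 0.00117). For both genes the earliest passage was highest and the latest lowest. POU5F1 averaged 1204, 1375, 1273 and 1151 CPM, highest at passage 29, with a log2 range of 0.24 (edgeR adjusted p = 0.00113). These calls held in every alternative that was run, with adjusted p-values of at most 0.0192. LIN28B missed the threshold (edgeR adjusted p = 0.069) but passed it in DESeq2 (adjusted p = 0.0312) and in edgeR without vehicle replicate 3 (adjusted p = 0.0456) or 4 (adjusted p = 0.04). With the GC correction its log2 range was 0.06 in place of 0.22 (edgeR adjusted p = 0.886). Each passage was a separate experiment, so passage and experiment cannot be told apart, and the F test asks for any difference and not for a trend. Its p-values rest on the spread between the 4 libraries of a passage and not between repeated experiments at that passage.

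Of 18 tested targets of the circuit, 10 changed with passage in NTera2, beside the 8.28% of all genes. GDF3, a TGF-beta family ligand, averaged 141, 132, 129 and 102 CPM at passages 27, 29, 30 and 31. DNMT3B averaged 1066, 1079, 970 and 902 CPM, L1TD1 578, 456, 467 and 465 CPM, and the telomere protein TERF1 114, 97.6, 91.7 and 89.6 CPM in that order. In TCam-2 no member passed the same test, while 1.77% of genes were called. At an unadjusted p under 0.05 stood 4 members, beside 2388 of all 16621 genes tested. LIN28A came nearest (log2 range 0.20, edgeR adjusted p = 0.07). DESeq2 called LIN28A (adjusted p = 0.0111), as did edgeR with the GC correction (adjusted p = 0.0138), without OPG replicate 2 (adjusted p = 0.0491), without OPG replicate 3 (adjusted p = 0.0433) and without vehicle replicate 4 (adjusted p = 0.0111).

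**Figure D5:**
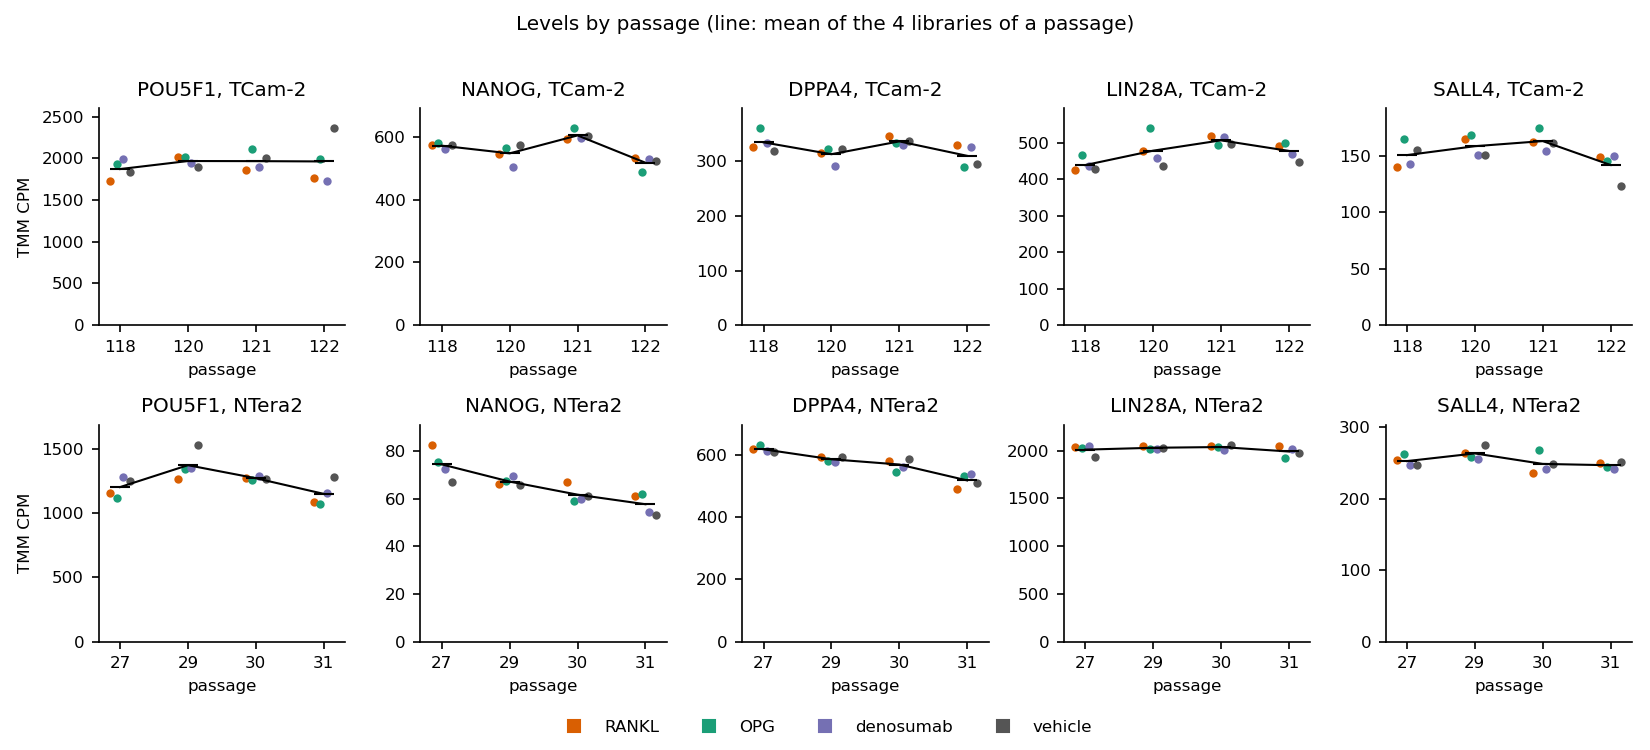
CPM of POU5F1, NANOG, DPPA4, LIN28A and SALL4 by passage in TCam-2 and NTera2; points are the 4 libraries of a passage, 1 per treatment, and lines join passage means. NANOG and DPPA4 are highest at passage 27 and lowest at passage 31 of NTera2, with NANOG at 74.3 and 57.6 CPM.

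The genes whose levels followed POU5F1, NANOG or SOX2 most closely from library to library were listed by Pearson's r of log2 CPM. For POU5F1 these were GSTP1 (r = 0.895), SUPT5H (0.867) and LAMTOR1 (0.867), over 32 libraries with each line's mean removed and 9980 candidate genes. For NANOG they were DPPA4 (0.777), its own copy NANOGP8 (0.73) and FHDC1 (0.718). For SOX2 they were SLX9 (0.955), CSNK1G2 (0.952) and MFSD12 (0.949), over the 16 NTera2 libraries and 11456 candidates. These libraries share depth and RNA quality between genes. Passage and treatment were not removed, and NANOG and DPPA4 both differed between passages of NTera2. The GC content of the POU5F1 neighbours was 62.5%, 58.2% and 55.7% and that of the NANOG neighbours 44.4%, 49.1% and 51.9%, beside a median of 48.1% among their candidates. For the SOX2 neighbours it was 65.8%, 65.2% and 67.8%, beside a median of 48.4%, and the part of GC content in these correlations was not tested.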

How the data were processed

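Polyadenylated RNA of 32 libraries was sequenced as 52-bp read pairs on a NovaSeq instrument from TruSeq Stranded mRNA libraries, per the labels. The submitters' processing notes name bcl2fastq 2.20.0, STAR 2.7.9a, featureCounts 1.6.2 and GRCh38/hg38. The annotation release and strand setting are not given in the sources used here. The authors deposited a table of raw counts per gene, with gene length and coordinates, and every sample column was matched to its library by the labels (0 columns unmatched). Totals were 10585247 to 30499538 counts per library.

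Genes were filtered with filterByExpr, scaled by TMM and tested with edgeR 4.0.16 (robust quasi-likelihood F test, R 4.3.3, Benjamini-Hochberg over all genes tested, called under 0.05). Treatments were compared within a line, the lines within a treatment, and passages by an F test with treatment in the fit, 19 comparisons in all. Each comparison is adjusted on its own. Levels are TMM-scaled CPM over all 32 libraries. The p-values of the treatment, line and interaction comparisons measure the spread between 4 experiments with 1 culture of each line. Those of the passage tests measure the spread between the 4 libraries of a passage, with treatment fitted, and each passage is 1 experiment. DESeq2 1.42.0 and the other alternatives are given in the closing section. The scripts were tested on simulated data. Replicate numbers stand for the same passage within a line per the labels, and same-numbered libraries deviated together only weakly (median r 0.0647 in NTera2 and 0.0547 in TCam-2). The F test over passages nevertheless called 8.28% of genes in NTera2 and 1.77% in TCam-2. The main treatment tests did not pair libraries by passage, so their intervals include the spread between passages.

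The members and gene lists were chosen with earlier results of these data known. The text names all members, and per list the called genes with the 2 highest and 2 lowest differences between lines among those reaching 5 CPM in either line. The values of 1 gene this rule names are not reported here. List genes named for passages, and NANOGP1 and NANOGP8, were chosen after their values were seen. Transcript GC content was available for at least 98.1% of tested genes.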

Additional observations from a re-analysis of the deposited data

Results flagged for a closer look

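Single libraries stood apart from the other 3 of their group in 7 of 72 combinations of member and group, by Dixon's test at its 95% critical value. Chance flags about 1 in 20 such combinations. NTera2 vehicle replicate 2 was high for POU5F1, with 1535 CPM where the others held 1251 to 1285 CPM, and for SALL4, with 275 CPM where the others held 247 to 251 CPM. SOX2 in NTera2 denosumab replicate 2 was at 279 CPM, with the others at 239 to 246 CPM. LIN28B in TCam-2 vehicle replicate 4 was at 112 CPM, with the others at 128 to 131 CPM. UTF1 in NTera2 RANKL replicate 3 was at 1.97 CPM, with the others at 0.944 to 1.06 CPM. UTF1 in TCam-2 RANKL replicate 1 was at 5.85 CPM, with the others at 8.75 to 9.10 CPM. DPPA4 in TCam-2 denosumab replicate 2 was at 292 CPM, with the others at 327 to 333 CPM.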

How the results depend on the processing

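No member was called in a treatment, inhibitor or interaction comparison under DESeq2, the replicate block or the GC correction. Keeping genes of low counts called 2 members with denosumab in NTera2 and 1 member each with RANKL and OPG in TCam-2. With 36435 genes tested in NTera2 and 35493 in TCam-2, it called 176 genes with RANKL and 237 with denosumab in NTera2, 51 with RANKL, 54 with OPG and 28 with denosumab in TCam-2, 1 with OPG against RANKL in NTera2, 3 with OPG and 1 with denosumab against RANKL in TCam-2, and 1, 3 and 32 for the interactions with RANKL, OPG and denosumab. DESeq2 called 14 genes with denosumab in NTera2, 1 with RANKL and 7 with OPG in TCam-2 and 2 for the interaction with RANKL. With the replicate block, which pairs libraries by passage, 30 genes were called with denosumab in NTera2, 2 with denosumab in TCam-2 and 1 for the interaction with denosumab. The block together with the GC correction, chosen after seeing the data, called 1 gene with RANKL and 14 with denosumab in NTera2, 3 with RANKL, 10 with OPG and 5 with denosumab in TCam-2, 10 with OPG against RANKL in TCam-2 and 1 for the interaction with denosumab. The block changed no call of a member. Leaving out each library in turn gave 0 to 29 genes and 0 to 1 members with denosumab in NTera2, 29 of the genes without vehicle replicate 3, and 0 to 1 genes with RANKL, OPG or denosumab in TCam-2. Genes called for passage numbered 1436 in NTera2, 778 with treatment dropped, 388 with the GC correction and 538 to 2409 without single libraries, lowest without OPG replicate 1 and highest without vehicle replicate 3. In TCam-2 they numbered 294, 727 with DESeq2, 750 without the filter, 173 with treatment dropped, 764 with the GC correction, 138 without the libraries of low RNA integrity (chosen after seeing the data) and 90 to 845 without single libraries, lowest without OPG replicate 1 and highest without vehicle replicate 4. Members called there were 1 with DESeq2, 1 with the GC correction and 0 to 1 without single libraries. The cause of these shifts was not tested. No direction was read for 111 member values whose unadjusted p was at least 0.05. Of these, 56 changed sign in at least 1 alternative, and of the other 42 none did. Using library totals in place of TMM moved 29 levels by more than 1 SD. UTF1 and SOX2 in the line where each is low, and ZFP42 in both, rest on few counts.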

Other observations

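Genes of the naive and primed lists that passed the F test over passages in TCam-2 included DNMT3L, a cofactor of de novo DNA methylation, which averaged 35.0, 53.6, 62.0 and 61.1 CPM at passages 118, 120, 121 and 122. SUSD2 averaged 337, 403, 425 and 429 CPM at those passages. DUSP6, a phosphatase that dampens ERK signalling, averaged 20.7, 10.6, 10.5 and 16.6 CPM, and SFRP2, a Wnt antagonist, 6.86, 3.28, 2.75 and 3.07 CPM in the same order. The seminoma marker PDPN averaged 427, 337, 348 and 326 CPM. Of the tested genes, 3 of 9 on the naive list and 4 of 8 on the primed list were called, against 1.77% of all genes. These genes were chosen after their values were seen.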
